A study of Mus musculus with 360 samples.

Results

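Osteocrin, encoded by Ostn, and the genes of natriuretic peptide signalling were followed through single skeletal stem and progenitor cells of 3 cranial sutures and the tibial growth plate of mice. The genes were the ligands Ostn and Nppc, the receptors Npr1, Npr2 and Npr3, and the cGMP-dependent kinase Prkg2, that is 6 of the 24015 genes in the tables. They were chosen by their place in the pathway and on measured values of these same cells, since Ostn had been seen in growth plate cells and hardly in suture cells. Differences in Ostn between the tissues are therefore a description and carry no test.

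The cells came from CD-1 wild-type mice at postnatal day 3, with no treatment and no genetic change in any group. They had been sorted singly as CD51+;CD200+ and free of blood, endothelial and other lineage proteins, from 4 places. The posterior frontal suture (PF) fuses early in life, whereas the sagittal (SAG) and coronal (COR) sutures do not. The tibial growth plate (GP) is the cartilage at which the shin bone grows in length. The cells came from many mice and no animal was named for any of them, so that each tissue was 1 sample and no p-value was computed between tissues. Each suture sample had held bone fronts, suture mesenchyme, dura mater and periosteum, and the growth plate served the study as the reference. Of 360 cells, 325 passed the filter of 500 genes and 10000 reads. The growth plate gave 78 of them, 20 on plate 1 and 58 on plate 2. The sutures gave 87 (PF, 34 and 53 by plate), 86 (SAG, 30 and 56) and 74 (COR, 16 and 58).

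Levels are given as CPM, that is counts scaled to equal library totals, over the reads other than Rn45s, the ribosomal RNA precursor. SAG plate 2 stood apart from the other plates, because Rn45s took 86.8% of its reads against 20.2% to 31% on the other 7 plates, and its cells had a median of 875 genes against 2112 to 3867. GP cells gave 28471545 reads other than Rn45s, with a median of 369308 per cell. The sutures gave 30299518 (PF), 17212041 (SAG) and 32037308 (COR), with medians of 312083, 184673 and 448803. Markers of the hindlimb, such as the homeobox genes Pitx1 and Hoxa10, were read in 57 of 78 GP cells and in 1 of 247 suture cells, as the tissue labels say. In GP cells the summed osteoblast markers reached 101030 CPM and those of fibroblast or periosteum 35903 CPM. The chondrocyte markers reached 3262 CPM and those of hypertrophic chondrocytes 7276 CPM. These lists are unequal, and the osteoblast list holds Col1a1, at 85718 and 54260 CPM in GP cells with and without Ostn. Their sums therefore do not weigh bone matrix against cartilage. Transcripts of the sorted proteins, Itgav for CD51 and Cd200, were found in 54 of 78 GP cells and 150 of 247 suture cells. Intervals are exact at 95% and cover counting error only, because reads after PCR are not molecules and cells of 1 tissue are not animals.

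C-type natriuretic peptide, the product of Nppc, binds the receptor Npr2, a membrane guanylate cyclase that raises cGMP in the cell. In growth plate cartilage cGMP activates the kinase encoded by Prkg2, and loss of this route in mice shortens the bones. Npr1 is the sister receptor for the heart peptides ANP and BNP, and Npr3 is the clearance receptor, which takes up and degrades natriuretic peptides. Osteocrin, a secreted protein of bone and muscle also called musclin, binds Npr3 and thereby spares C-type natriuretic peptide from removal.

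The likeness of osteocrin to the natriuretic peptides lies in a short stretch, and the coding sequences are shown here because this stretch is what makes Ostn a member of the pathway. The peptide of Nppc closes into a ring of 17 residues between a pair of cysteines, encoded by codons 110 to 126 of 126 on the minus strand of mm9 at chr1:88566242-88566292, within 1 exon. Every window of 17 codons of Ostn was set against this ring, 114 in all, and the best of them tied at 6 codons for the same amino acid. They lay on the plus strand, the first at codons 83 to 99 of 130 (chr16:27324756-27324806) and the second at codons 112 to 128 (chr16:27346982-27347032), each within 1 exon. The next best window that overlapped neither had 4. Capitals mark, in the Ostn lines, the codons whose amino acid was that of the ring and, in the Nppc line, the 4 codons matched in both windows.
Nppc ring: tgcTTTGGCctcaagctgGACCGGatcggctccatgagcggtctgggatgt
Ostn first window: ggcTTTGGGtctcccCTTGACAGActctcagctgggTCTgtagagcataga
Ostn second window: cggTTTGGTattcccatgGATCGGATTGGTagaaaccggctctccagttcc
The codons at the ends of the ring, for the cysteines, were matched in neither Ostn window, which is the known difference between osteocrin and the closed ring of its relatives.

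Ostn was read in 26 of 78 GP cells, or 33.3% (interval 23.1% to 44.9%). The share was 6 of 20 cells on GP plate 1 and 20 of 58 on plate 2, or 30% and 34.5%. In the sutures it was 2 of 87 PF cells, 0 of 86 SAG cells and 2 of 74 COR cells, or 2.30% (0.280% to 8.06%), 0%, which allows up to 3.49%, and 2.70% (0.329% to 9.42%). Both GP plates thus lay above the upper interval of every suture. With each cell thinned to 100000 reads other than Rn45s, the shares were 34.3% in GP, 2.86% in PF, 0% in SAG and 2.82% in COR.

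**Figure D1:**
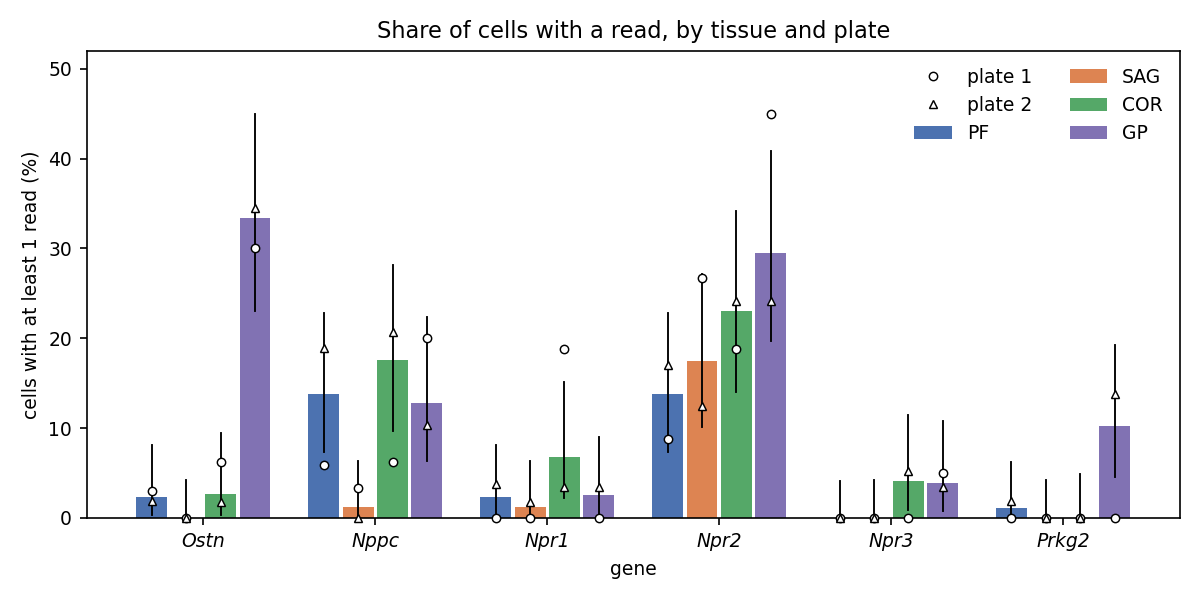
Share of cells with at least 1 read of each gene (vertical axis, percent) in PF, SAG, COR and GP (colours), with exact 95% binomial intervals as lines and the share on plate 1 and plate 2 as circles and triangles. Ostn reached 33.3% of GP cells and at most 2.70% of cells in a suture, while Npr2 was read in 13.8% to 29.5% of the cells of every tissue.

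The level of Ostn per GP cell was far from 1 stray read. Its 26 cells held 1 to 3236 reads with a median of 353.5, and 23 of them held at least 5. Summed over the tissue, the level was 711 CPM (interval 701 to 721) from 20242 reads, 312 CPM on plate 1 and 795 CPM on plate 2, and the highest cell gave 16% of the reads. The other tissues stood at 1.35 CPM in PF (2.20 and 1.15 CPM on plates 1 and 2), 20.6 CPM in COR (7.41 and 22.1 CPM) and 0 CPM in SAG. The order was GP, COR, PF and SAG with no overlap between plates of different tissues, but each suture plate with any read rested on 1 cell, and 96.4% of the COR reads were in 1 of them.

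On the log2(CPM + 1) scale GP lay above PF by 8.24 (plate by plate 6.61 to 8.53), above COR by 5.04 (3.76 to 6.56) and above SAG by 9.48 (8.29 to 9.64). Without the cell with the most Ostn reads in each tissue, the ratio to COR was 8.44. Against the level that 3 reads over all SAG cells would give, Ostn was at least 4079-fold higher in GP, and at least 1629-fold against SAG plate 1 alone.

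The 4 suture cells with Ostn were looked at singly. They held 13 and 28 reads in PF and 24 and 637 reads in COR, with no read of a hindlimb marker in any of them. The richest, in COR, had an Ostn level of 826 CPM, between the lowest and highest GP cells of 5.29 and 5039 CPM. Cross-talk between wells was not tested.

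**Figure D2:**
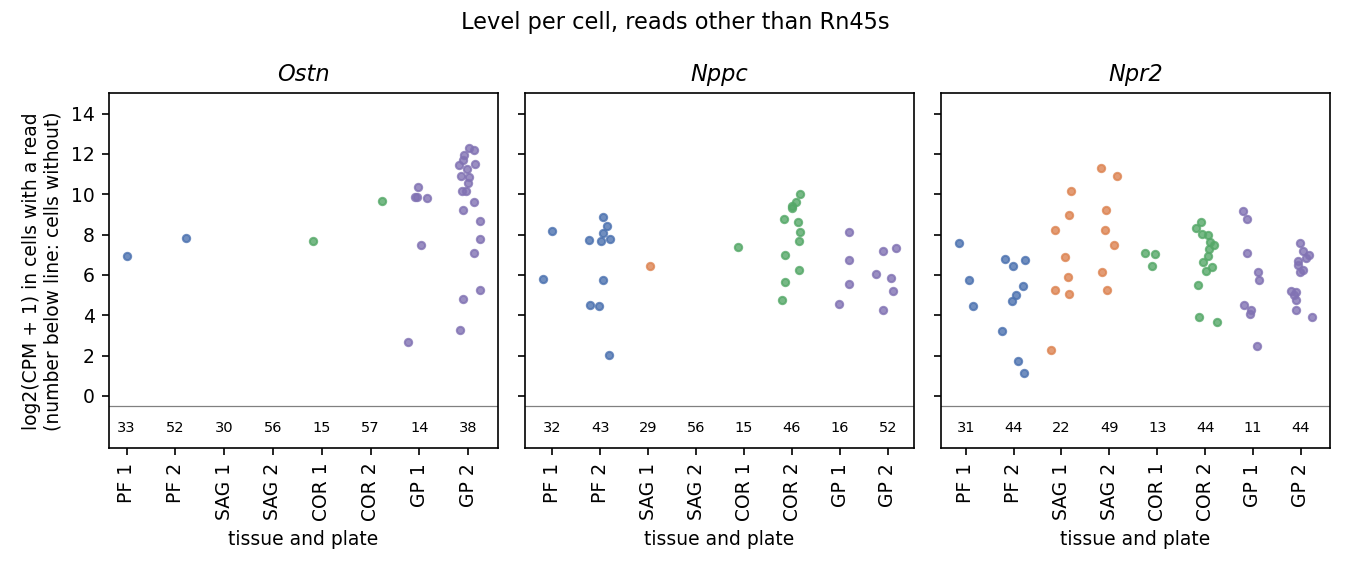
Level of Ostn, Nppc and Npr2 per cell as log2(CPM + 1) of reads other than Rn45s (vertical axis) for the 8 plates (horizontal axis), 1 point for each cell with a read, with the count of cells without a read printed below the line. Ostn points fill both GP plates and only 4 lie in the sutures, Nppc is nearly missing from SAG, and Npr2 points occur on all 8 plates.

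Genes with a like distribution were counted, with the shares of Ostn itself as the limits. Since Ostn was chosen on this contrast, nothing is read from how few they were. Across all 24015 genes, 3234 were read in at least as large a share of GP cells as Ostn, and 3 of these were read in as small a share of suture cells or smaller. They were Pitx1 in 39 GP cells, Shox2 in 29 and Hoxa10 in 27, all in 0 of 247 suture cells. All of them are transcription factor genes of limb patterning, whereas Ostn codes for a secreted protein. Per GP tissue they stood at 55.7, 33.2 and 65.7 CPM.

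Nppc had another order among the tissues. It was read in 13 of 74 COR cells, 12 of 87 PF cells, 10 of 78 GP cells and 1 of 86 SAG cells, or 17.6% (9.70% to 28.2%), 13.8% (7.34% to 22.9%), 12.8% (6.32% to 22.3%) and 1.16% (0.0294% to 6.31%). Its levels were 73.4 CPM in COR (7.41 and 80.8 CPM on plates 1 and 2), 37.4 CPM in PF (3.89 and 45.5 CPM), 11.2 CPM in GP (34 and 6.42 CPM) and 1.45 CPM in SAG (3.64 and 0 CPM). The plates of COR, PF and GP overlapped, so the order of these 3 was within the spread of plates. Both SAG plates lay below every plate of the others, and the single SAG cell with Nppc was on plate 1. The margin was slight, since SAG plate 1 (interval 2.35 to 5.37 CPM) overlapped PF plate 1 (2.46 to 5.83 CPM), which rested on 2 cells.

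Cells with Nppc held more of it in COR and PF than in the growth plate. The median was 87 reads (12 to 561) in the 13 COR cells, 51 (1 to 336) in the 12 PF cells and 22 (4 to 105) in the 10 GP cells. The corresponding median levels were 278, 208 and 60.6 CPM.

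Npr2, the receptor of C-type natriuretic peptide, was the member found in all tissues and on all plates. It was read in 23 of 78 GP cells, 17 of 74 COR cells, 15 of 86 SAG cells and 12 of 87 PF cells, or 29.5% (19.7% to 40.9%), 23% (14% to 34.2%), 17.4% (10.1% to 27.1%) and 13.8% (7.34% to 22.9%). In SAG the share was 26.7% on plate 1 and 12.5% on plate 2. Each neighbour in this order lay within the interval of the next. The order by level was different, with 70.6 CPM in SAG (42.5 and 89.3 CPM on plates 1 and 2), 33.1 CPM in COR (26.3 and 33.9 CPM), 31.1 CPM in GP (62.7 and 24.5 CPM) and 9.87 CPM in PF (13.2 and 9.06 CPM). GP plates overlapped those of SAG and COR, SAG lay above COR on both plates, and both PF plates lay below all the others. The SAG levels leaned on single cells, since 1 cell held 56.2% of the Npr2 reads on plate 1 and 1 cell 40.3% on plate 2.

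Npr1 and Npr3 were rare. Npr1 was read in 2 PF cells, 1 SAG cell, 5 COR cells and 2 GP cells, at 7.29, 2.85, 9.99 and 0.913 CPM, and 1 cell held 79.2% of its reads in PF and 85.3% in COR. The SAG cell lay on plate 2. Npr3, the receptor that binds osteocrin, was read in 3 of 74 COR cells (47, 76 and 93 reads) and 3 of 78 GP cells (23, 42 and 62 reads), at 6.74 and 4.46 CPM, and in 0 PF and 0 SAG cells, which allows up to 3.45% and 3.49%. The clearance receptor was thus read in 3.85% of all 78 GP cells (0.8% to 10.8%), and in 0 of the 26 GP cells with Ostn. With 3 GP cells in all, no absence from the cells with Ostn is read from this.

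Prkg2, the kinase downstream of Npr2, was read in 8 of 78 GP cells, or 10.3% (4.53% to 19.2%), in 1 of 87 PF cells and in 0 SAG and 0 COR cells, which allows up to 3.49% and 4.05%. All 8 GP cells were on plate 2, which had 58 cells, and 0 of the 20 cells of plate 1 held a read. The GP cells held 1, 3, 7, 44, 69, 100, 177 and 240 reads and the PF cell 268. The level was 22.5 CPM in GP (0 and 27.2 CPM on plates 1 and 2) and 8.85 CPM in PF from that 1 cell, so that GP plate 1 did not stand above the sutures.

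Set on a common length scale, the leading member changed with the tissue. In CPM per kilobase of annotated exon, from reads other than Rn45s, GP had 499.6 for Ostn, 10.7 for Nppc, 6.67 for Npr2, 4.19 for Prkg2, 0.631 for Npr3 and 0.191 for Npr1. COR had 70.3 for Nppc, 14.5 for Ostn, 7.10 for Npr2, 2.09 for Npr1 and 0.954 for Npr3. PF had 35.8 for Nppc, 2.11 for Npr2, 1.65 for Prkg2, 1.52 for Npr1 and 0.951 for Ostn. SAG was led by the receptor Npr2 at 15.1, with Nppc at 1.39 and Npr1 at 0.595. A ligand transcript thus led in GP, COR and PF, and a receptor transcript in SAG. Ostn was chosen for its level in GP, so nothing is read from its lead there. On plate 1 Nppc rested on 1 COR cell and 2 PF cells, at 7.11 and 3.73, with Npr2 at 5.62 and 2.83.

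The members were also read against all genes. A gene was counted as different when its log2 ratio was at least 1 in size with the same sign in all comparisons of a plate of one tissue with a plate of the other, among genes of at least 10 CPM in either tissue. Of the 6 members, 4 reached that level in each comparison, Ostn, Nppc, Npr2 and Prkg2, and Npr1 and Npr3 were too low. Between GP and PF, 8.73% of 9584 genes were higher in GP, with Ostn and Npr2 among them, and 7.67% were lower, with no member. Between GP and COR the shares were 7.09% and 6.33% of 9431 genes, with Ostn higher and no member lower. Between GP and SAG they were 18.3% and 13.3% of 9845 genes, with Ostn and Nppc higher and no member lower. In numbers these were 1805 genes higher and 1306 lower, and 2095 and 317 if Rn45s was counted in the totals. Without SAG plate 2 they were 16.4% and 17.6% of 9532 genes, with the same members. Since Ostn was chosen on this contrast, nothing is read from its place in these counts.

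The differences of the other members were smaller than that of Ostn. Npr2 was higher in GP than in PF by 1.56 on the log2 scale (plate by plate 0.84 to 2.66). Nppc was higher in GP than in SAG by 2.32 (0.68 to 5.13), and by 1.40 without SAG plate 2. The Nppc ratios of GP to COR and to PF were -2.61 (-3.46 to 2.06) and -1.65 (-2.65 to 2.84), and the plates did not have 1 sign. Neither did the Prkg2 ratio of GP to PF, at 1.26 (-3.58 to 4.82), nor the Npr2 ratio of GP to SAG, at -1.16 (-1.83 to 0.55).

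Within the growth plate the members met in the same cells to different degrees. Nppc was read in 7 of the 26 GP cells with Ostn and 3 of the 52 without, or 26.9% and 5.77%. Npr2 was read in 11 of 26 and 12 of 52, or 42.3% and 23.1%. Both GP cells with Npr1 held Ostn. Of the cells with Npr3 and with Prkg2, 0 of 3 and 0 of 8 held Ostn. Prkg2 was thus read in 0% of the cells with osteocrin transcripts and in 15.4% of those without. These are few cells, and how often other genes as rare miss the cells with Ostn was not counted. Nothing is therefore read from the missing overlap. Cells with Ostn were deeper, with a median of 435652 reads other than Rn45s against 264297, and had more genes, 3285 against 2932.5 in the median. The part of depth in these overlaps was not tested.

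Ligand and receptor of the Nppc route were read together in a minority of cells. Npr2 was found in 5 of 10 GP cells with Nppc and 18 of 68 without, in 4 of 13 and 13 of 61 COR cells, and in 3 of 12 and 9 of 75 PF cells. Npr2 and Prkg2, the receptor and its kinase, met in 2 GP cells out of 23 and 8. At least 1 of the 6 members was read in 62.8% of GP cells, 41.9% of COR, 27.6% of PF and 19.8% of SAG cells. These shares include Ostn, which was chosen on this contrast and read in 26 GP, 2 COR, 2 PF and 0 SAG cells. Nothing is therefore read from the place of GP in this order.

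The genes that went with Ostn across the 78 GP cells included several of the connective tissue matrix. Among 5423 genes read in at least 20% of these cells, with a median correlation of 0.04 with Ostn on the log2(CPM + 1) scale, the 10 highest that had the same sign on both plates were Tnn (0.59), Fndc1 (0.53), Lrrc17 (0.52), Ptgfrn (0.49), Ccdc3 (0.49), Aspn (0.49), Col12a1 (0.47), Alpl (0.47), Efna5 (0.47) and Tmem120a (0.47). Tnn codes for tenascin-W of the periosteum and of forming bone, Aspn for asporin, a small proteoglycan, Col12a1 for a fibril-associated collagen, Alpl for the alkaline phosphatase of mineralizing cells and Efna5 for an ephrin ligand. The lowest were Limch1 (-0.37), Map3k1 (-0.35), Smdt1 (-0.34), Cyp2j6 (-0.33) and Spp1 (-0.32), the last coding for osteopontin. These are correlations over cells that share plates and depth, and they describe these cells only.

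Counts of cells show the same choice of genes in another way. Tnn was read in 21 of 26 GP cells with Ostn and 13 of 52 without, or 80.8% and 25%. Fndc1 and Col12a1 were read in all 26, against 42.3% and 67.3% of the others. Map3k1 and Cyp2j6 were read in 0 of 26 and in 36.5% and 30.8% of the others. GP cells with Ostn held a median of 8 of the 10 companions and GP cells without it a median of 3, and after thinning to equal depth 8.5 and 4.

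**Figure D3:**
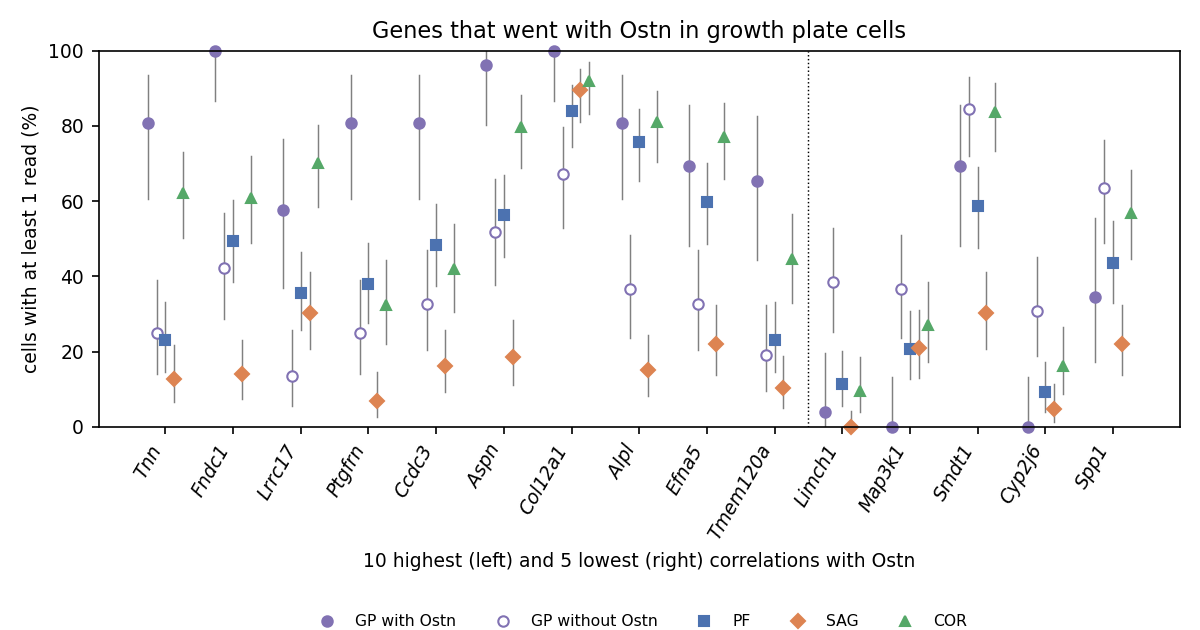
Share of cells with a read (vertical axis, percent, with exact 95% binomial intervals) of the 10 genes with the highest and the 5 with the lowest correlation with Ostn, in GP cells with Ostn (filled circles, 26 cells) and without (open circles, 52 cells) and in PF, SAG and COR cells. The 10 genes were read in COR cells too, in shares from 32.4% for Ptgfrn to 91.9% for Col12a1, although Ostn was read in 2 of 74 of them.

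The companions were also found outside the growth plate, and their suture values were not used in choosing them. COR cells held a median of 7 of the 10, PF cells 5 and SAG cells 2, or 3 on SAG plate 1 alone. At least 7 were read in 41 of 74 COR cells, of which 2 had Ostn, in 26 of 87 PF cells, of which 2 had Ostn, and in 1 of 86 SAG cells. In GP they were 22 of the 26 cells with Ostn and 5 of the 52 without. All 4 suture cells with Ostn held 7 or 8 of the companions. Cells with this set of transcripts were thus found in COR and PF, and most of them had no Ostn read.

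The cell type markers moved with Ostn in the same tissue. The 6 markers of fibroblast or periosteum summed to 55503 CPM in GP cells with Ostn and 24010 CPM in those without, and 5 of them were read in a larger share of the cells with Ostn. Postn, for periostin, was at 9545 and 4081 CPM, Lum, for lumican, at 7927 and 2307 CPM, and Col3a1, for the fibrillar collagen of soft connective tissue, at 32299 and 13494 CPM. The 7 osteoblast markers summed to nearly the same level, 102781 and 99968 CPM, but differed within the list, which has Alpl in common with the companions. Sp7, the transcription factor osterix, stood at 103 and 31 CPM, and was read in 38.5% and 15.4% of the cells. Runx2 of the same list went the other way in level, at 27.2 and 64.1 CPM. It was read in 38.5% and 34.6% of the cells, and after thinning in 29.2% and 37.2%. Col1a1 stood at 85718 and 54260 CPM. The late matrix genes Ibsp and Spp1 stood at 254 and 2589 CPM and at 15862 and 42473 CPM, and 1 cell gave 99.9% and 88.7% of their reads with Ostn. Bglap, for osteocalcin, another late gene, was read in 11 of 26 cells with Ostn and 5 of 52 without, at 68.3 and 264 CPM, the latter to 99.2% from 1 cell.

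Markers of other cells went in both directions. The 6 chondrocyte markers summed to 648 CPM with Ostn and 4848 CPM without, but the median cell stood at 333 and 197 CPM, since 1 cell without Ostn held 65.3% of the Col2a1 reads of its group. Acan, for aggrecan of cartilage, was read in 84.6% of the cells with Ostn and 55.8% of those without, and Sox9, the cartilage transcription factor, in 57.7% and 32.7%, while the other 4 were read in a smaller share with Ostn. Osteocyte markers came to 1.30 and 184 CPM and those of cycling cells to 0.372 and 260 CPM. Of the 8 skeletal muscle markers, 6 were at 0 in the cells with Ostn, Myod1, Myog, Ckm, Tnnt3, Des and Pax7, and the list summed to 1.49 CPM against 8.75 CPM, although muscle is a known source of osteocrin. All 4 endothelial markers were at 0 in both. Tenocyte markers were at 2337 and 2162 CPM, with all 3 read in a larger share of the cells with Ostn, and hindlimb markers at 263 and 164 CPM. Transcripts of the sorted proteins were lower with Ostn, at 75.9 CPM against 275 CPM. Hypertrophic chondrocyte markers stood at 6086 and 7999 CPM, with 5572 CPM of the former from Col10a1 in 1 cell, and their median cells at 35.2 and 0 CPM. Pth1r of that list, the receptor of parathyroid hormone, was read in 57.7% and 25% of the cells. Smooth muscle or pericyte markers stood at 570 and 2768 CPM, where 1 cell without Ostn held 78.9% of the Acta2 reads of its group, with median cells at 4.50 and 0 CPM and 4 of the 5 markers read in a larger share with Ostn. Haematopoietic markers stood at 0.744 and 5.47 CPM and neural or glial markers at 0.558 and 493 CPM. The part of these markers in the Ostn values was not tested.

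Nppc in COR went with a tighter set of genes. Across 74 COR cells and 6286 genes with a median correlation of 0.01, those described here, 4 of the 5 highest, were Meg3 (0.83), Fmo1 (0.83), Atp1b1 (0.81) and Col14a1 (0.81). Meg3 is a long noncoding RNA of an imprinted locus, Fmo1 is a flavin monooxygenase, Atp1b1 a subunit of the sodium pump and Col14a1 a fibril-associated collagen. Meg3, Fmo1 and Col14a1 were read in all 13 COR cells with Nppc and Atp1b1 in 12, against 5 to 8 of the 61 cells without it. Of these 13 cells 1 lay on plate 1, so the sign of the correlations on that plate hung on 1 cell.

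The same 4 genes were then read in the tissues that had not been used to choose them. In PF they were read in 9 to 12 of the 12 cells with Nppc and in 20 to 33 of the 75 without, with correlations of 0.23, 0.42, 0.51 and 0.42 in the order above. In GP the correlations were 0.18, 0.21, -0.12 and 0.37, and Atp1b1 was read in 0 of the 10 cells with Nppc. In PF all 4 were thus again read in a larger share of the cells with Nppc. They were chosen for their high correlations in COR, which favours their COR values. The lower correlations in PF and GP are therefore not read as a weaker link. In GP, Col14a1 was read in all 10 cells with Nppc against 57.4% of the others.

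**Figure D4:**
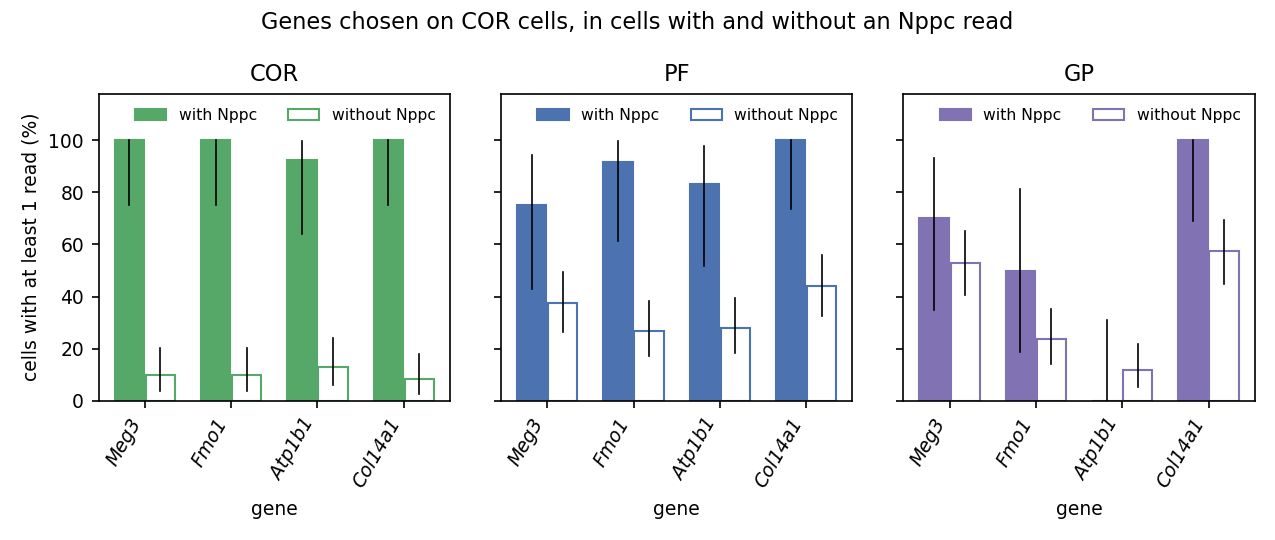
Share of cells with a read (vertical axis, percent, with exact 95% binomial intervals as lines) of 4 of the 5 genes most correlated with Nppc in COR, in cells with an Nppc read (filled bars, 13 in COR, 12 in PF and 10 in GP) and without (open bars, 61, 75 and 68). The bars with Nppc reach 92.3% to 100% in COR and 75% to 100% in PF, and in GP they run from 0% for Atp1b1 to 100% for Col14a1.

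In both sutures several transcripts of the maturing osteoblast were read in a smaller share of the cells with Nppc. Sp7 was read in 0 of 13 COR cells with Nppc and 44 of 61 without, and in 1 of 12 and 30 of 75 PF cells. Ibsp, for bone sialoprotein, was read in 0 of 13 and 19 of 61 COR cells and in 1 of 12 and 26 of 75 PF cells. Spp1 was read in 4 of 13 and 38 of 61 COR cells and in 0 of 12 and 38 of 75 PF cells. Bglap was read in 1 of 13 and 28 of 61 COR cells and in 0 of 12 and 22 of 75 PF cells. Runx2 was read in 46.2% and 65.6% of COR cells and in 25% and 48% of PF cells. Alpl differed less, at 76.9% and 82% in COR and 66.7% and 77.3% in PF. Col1a1, the main bone collagen, was read in all of the Nppc cells of both sutures. Its level was 48008 CPM with and 67052 CPM without Nppc in COR, and 68705 and 85583 CPM in PF. The cells with Nppc were the deeper ones, with medians of 540528 against 423035 reads other than Rn45s in COR and 537002 against 263953 in PF. With each cell thinned to 100000 reads other than Rn45s, Sp7 was read in 0% and 72.4% of COR cells with and without Nppc and in 10% and 48.3% of PF cells.

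The 6 chondrocyte markers did not go 1 way with Nppc. Acan was read in a larger share of the Nppc cells in both sutures, in 9 of 13 and 26 of 61 COR cells and in 10 of 12 and 25 of 75 PF cells. Col2a1, the main cartilage collagen, was read in 0 of 13 COR cells and 5 of 12 PF cells with Nppc, against 3 of 61 and 3 of 75 without. Col9a1, of another cartilage collagen, was read in 4 of 13 and 1 of 61 COR cells and in 0 of 12 and 6 of 75 PF cells. Sox9 was read in 38.5% and 29.5% of COR cells with and without Nppc and Hapln1 in 46.2% and 27.9%, while in PF they were read in 16.7% and 24% and in 8.33% and 16%. Matn3 was read in no COR cell and in 0 of 12 and 2 of 75 PF cells.

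For Npr2 the companions were weak. Across GP cells the 5 highest were Hyi (0.46), Cd248 (0.44), Olfml1 (0.44), Derl2 (0.43) and Coa5 (0.42), from 5423 genes with a median of 0.06. Cd248, for endosialin of stromal fibroblasts, was read in 15 of 23 GP cells with Npr2 and 11 of 55 without. In the sutures the correlations of these genes with Npr2 were between -0.11 and 0.30, the highest for Cd248 in PF, where 10 of 12 cells with Npr2 and 28 of 75 without had a read. Npr1, Npr3 and Prkg2 were read in under 10 cells of every tissue and no companions were computed for them.

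The rest of the pathway was followed through a list of 37 genes, of which 29 had a read in some cell and 8 had none. The list also held growth plate genes that the pathway is known to meet, Fgfr3, Sox9, Ihh, Pthlh and Pth1r, which are not members of it. The genes for the heart peptides were nearly silent, with Nppa in 1 COR cell and Nppb in 0 of 325 cells. Nos1 and Nos2, for nitric oxide synthases, were read in 0 cells and Nos3 in 2. The enzymes that process or degrade the peptides differed in their reach. Corin, for a protease that cuts the ANP precursor, was read in 1 SAG and 2 GP cells, whereas Furin and Ide were found in every tissue. Furin, a protease that cuts the precursor of C-type natriuretic peptide, was read in 33 of 78 GP cells and in 33 PF, 24 SAG and 34 COR cells. Mme, for neprilysin, which degrades natriuretic peptides, was read in 27 GP cells and in 17 PF, 2 SAG and 28 COR cells. Ide, for insulin-degrading enzyme, was read in 22 GP cells and in 30 PF, 22 SAG and 30 COR cells.

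The other cGMP genes were sparse. Among the subunits of the soluble guanylate cyclase, Gucy1a3 was read in 8, 4, 3 and 9 cells of PF, SAG, COR and GP and Gucy1b3 in 1, 0, 0 and 4. The 10 phosphodiesterases that take cGMP were each read in at most 13.5% of the cells of a tissue, Pde3b reaching that share in COR. Prkg1, for the other cGMP-dependent kinase, was read in 16, 14, 7 and 11 cells, so that it was more widespread than Prkg2 in every tissue, most closely in GP with 11 cells against 8. Vasp, a substrate of these kinases, was read in 11, 11, 25 and 26 cells.

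These genes were set against the same background. Over all genes compared, 8.73% were higher and 7.67% lower in GP than in PF, and 7.09% and 6.33% for COR. For SAG the shares were 18.3% and 13.3%, and 16.4% and 17.6% without SAG plate 2. Whether the counts on the list differ from these shares was not tested. In the comparison with PF, 1 of 15 that reached the level was higher in GP, Vasp with a log2 ratio of 1.17, and 2 were lower, Pcsk6 at -1.17 and Pth1r at -1.37. With COR, 2 of 14 were higher, Gucy1a3 at 1.67 and Sox9 at 1.10, and 1 was lower, Pde3b at -1.79. With SAG, 4 of 16 were higher, Mme at 3.01, Pthlh at 2.19, and Pde1a and Pde1b, at 0 reads in SAG, by at least 67.7-fold and 96.7-fold. Lower were 5, Sox9 at -6.11, Fgfr3 at -3.65, Pde1c at -3.07, Pde3b at -1.88 and Prkg1 at -1.30. Without SAG plate 2, 6 of 14 were higher and 4 lower, with Sox9 at -2.02 and Fgfr3, a receptor that holds back growth plate cartilage, at -1.05, so that both differences were smaller without the plate that stood apart. The median log2 ratio of the listed genes that reached the level was -0.55 to PF, -0.44 to SAG (-0.09 without SAG plate 2) and -0.0015 to COR, beside -0.10, 0.23 (-0.10) and -0.07 over all genes compared.

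**Figure D5:**
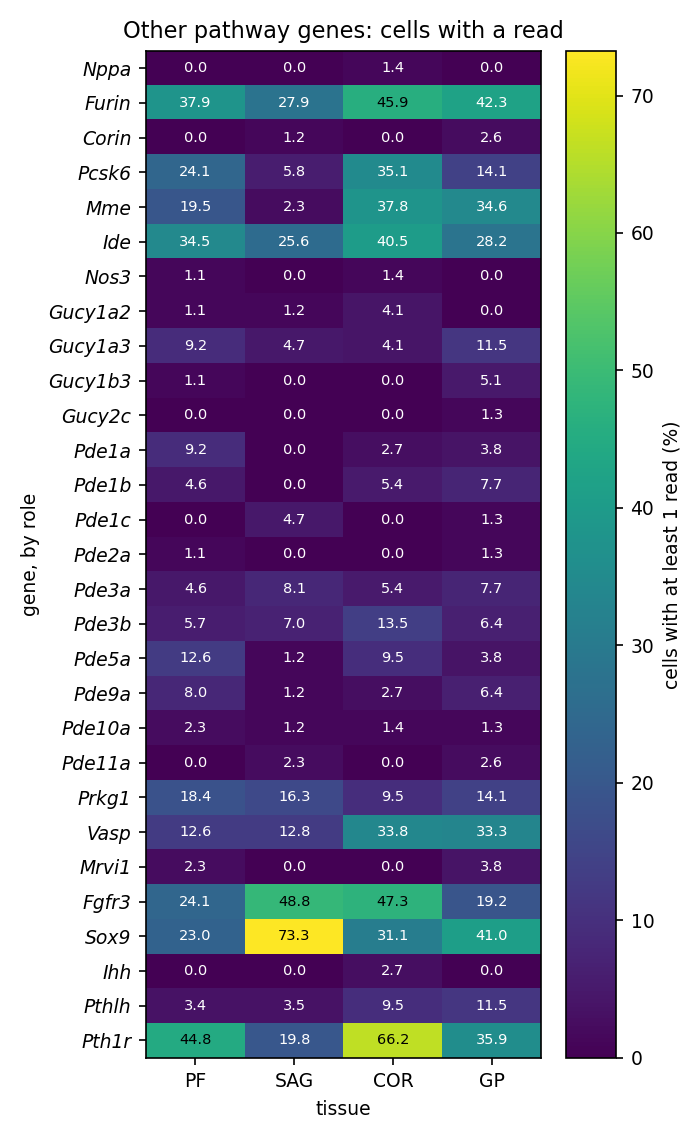
Share of cells with a read (colour and printed number, percent) of the 29 listed genes with any read (vertical axis, in order of their roles) in PF, SAG, COR and GP (horizontal axis). They are other pathway genes and, at the end, growth plate genes that the pathway is known to meet. Furin and Ide are found in every tissue at 25.6% to 45.9%, the phosphodiesterase genes stay at or under 13.5%, and Sox9 and Fgfr3 reach 73.3% and 48.8% in SAG.

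The places of the 6 genes in mm9 were chr16:27307575-27351298 on the plus strand for Ostn, chr1:88562866-88567147 on the minus strand for Nppc, chr3:90254513-90269788 on the minus strand for Npr1, chr4:43644807-43664116 on the plus strand for Npr2, chr15:11769651-11835429 on the minus strand for Npr3 and chr5:99358792-99466370 on the minus strand for Prkg2. Annotated genes overlapped Ostn (Gm15970), Npr1 (Gm16048) and Npr2 (Gm12473) on the opposite strand and Prkg2 (Gm3470) on its own, and reads of such pairs cannot be told apart where strand was not used in counting. Nppc and Npr3 overlapped none.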

How the data were processed

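CD51+;CD200+ cells were sorted singly into plates by the authors, and full-length cDNA libraries were made by the SMART-seq2 protocol. The data used are the raw read counts per gene and cell that the authors deposited in 8 tables, 1 for each of 2 plates per tissue. Per the submitters' processing notes, STAR 2.5.3a, HTSeq, Seurat 2.3.0 and R 3.4.4 were used with build mm9. The annotation and the strand setting are not given in the sources used here. The protocol has no molecular identifiers, so counts are of reads after PCR.

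Groups came from the title of each cell. For 1 cell the title and source said SAG and the description a PF plate, and it was counted as SAG. Every tissue had plates of its own, so that plate and tissue cannot be told apart, and plate numbers do not pair tissues. Cells with at least 500 genes and 10000 reads were kept, which removed 35, and none of the removed cells held a read of a member. No doublet caller was run on singly sorted wells.

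For each tissue, reads of all its cells were added up and divided by the reads other than Rn45s, because Rn45s differed so much on SAG plate 2. Ratios are log2 of (CPM + 1), which understates changes of low genes. Shares carry Clopper-Pearson and CPM values exact Poisson intervals at 95%. A count of 0 was given the upper limit of 3 counts over the tissue. Correlations are Pearson's over log2(CPM + 1). Lengths and places came from the mm9 annotation of GENCODE, with all annotated exons of a gene merged, and the ring was found by translating the coding sequences. Python 3.11.15, numpy 2.4.6, pandas 2.3.3, scipy 1.17.1 and matplotlib 3.10.9 were used, and edgeR 4.0.16 in R 4.3.3 only for TMM factors as an alternative. The calculations were tested on simulated data.

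The genes named are the 6 members, the 37 listed genes of the pathway and the growth plate, and genes chosen by correlation. For Ostn these are the 10 highest and 5 lowest correlations in GP. For any other member with a read in at least 10 cells of a tissue they are the 5 highest. The latter were taken in the tissue with the largest share of cells. All had the same sign on both plates. Of the genes taken for Nppc, 1 is not reported here. Pitx1, Shox2 and Hoxa10 were named after their values were seen. The members and the lists were chosen with earlier results of these data known. Alternatives were no filter, a filter of 1500 genes and 50000 reads, thinning, a minimum of 5 reads, single plates, leaving out SAG plate 2, the cell of unclear label or the richest cell, Rn45s in the total, TMM factors, mean CPM over cells, other CPM minimums, a pseudocount of 0.1 and Spearman correlation.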

Additional observations from a re-analysis of the deposited data

How the results depend on the processing

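Of 156 recomputed shares of cells, 143 stayed within the interval of the reported share. Those outside it lay on 1 plate in all but 1 case. On plate 1 alone, Nppc was read in 5.88% of PF and 6.25% of COR cells, Npr1 in 18.8% of COR cells and in 0% of PF, SAG and GP cells, Npr2 in 45% of GP cells, Npr3 in 0% of COR cells and Prkg2 in 0% of PF and 0% of GP cells. On plate 2 alone, Nppc was read in 0% of SAG cells. The stricter filter left Npr1 in 0% of SAG cells, and so did leaving out SAG plate 2, with 0%. The Ostn level in GP was 312 CPM on plate 1. The log2 ratio of Ostn was 6.67 to PF with the mean CPM over cells, 12.80 to SAG with a pseudocount of 0.1 and 8.44 to COR without the richest cells.

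With a minimum of 50 CPM, 262 genes were higher and 243 lower in GP than in PF, 777 and 832 against SAG, and 225 and 177 against COR, as fewer genes were compared. With Rn45s in the total, 317 genes were lower in GP than in SAG. Among the 10 companions of Ostn, 5 were again among the 10 highest with Spearman correlation and 6 with the stricter filter. On plate 2 alone 5 were, and on plate 1 alone, which has 20 GP cells, 0. All 15 named genes kept the sign of their correlation in every alternative that gave a value. The same sign on both plates was a condition of their choice, and the other alternatives used largely the same cells. Nothing is therefore read from the kept signs. The sign of the GP to SAG ratio changed for Npr1 in 4 alternatives and for Npr2 in 1, and that of Npr3 to COR in 1.

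No paired analysis was possible because plate numbers do not pair tissues and no test was made. A missing read in a cell does not show that the gene was off.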
